A study of Homo sapiens with 9 samples.

Results

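The genes described here are 38 protein-coding genes that build ribosomes, from the RNA polymerase I machinery that copies ribosomal DNA to the proteins that modify, cut and fold the transcript. They were taken from a list by symbol in GENCODE release 29 and make up 38 of the 58721 genes listed for each library. All 38 were measured by sequencing of total RNA from H1299 cells, a line grown from a human lung cancer of the non-small cell kind. The melatonin group was given 0.1 mM melatonin, the siCLOCK group was given small interfering RNA against the circadian transcription factor CLOCK, and the control group was kept in serum free medium, with 3 libraries each. The labels name no medium for the melatonin and siCLOCK groups and no non-targeting siRNA. They give no treatment time and do not say whether the libraries of a group came from separate cultures, so each p-value here rests on the spread between libraries, which may be technical. The series' title places both treatments in the setting of disturbed circadian rhythm.

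Ribosome assembly starts in the nucleolus, where RNA polymerase I transcribes a long precursor of the ribosomal RNAs. Small nucleolar ribonucleoproteins of the box C/D class guide methylation and those of the H/ACA class guide pseudouridylation of this precursor. A large set of assembly factors then cuts and folds it into the small and the large subunit. Many of these genes are known targets of MYC, which like CLOCK binds DNA at the E-box, and cells that divide fast, tumour cells among them, need much of their products.

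Counts assigned to genes ranged from 15384539 to 19192962 per library. CLOCK, the gene targeted by the siRNA, stood at 20.9, 32.0 and 38.1 CPM (counts relative to library size, with sizes scaled by TMM) in the siCLOCK libraries, against 39.0, 38.6 and 44.4 CPM in control, so the library labelled siCLOCK replicate 3 was at 93.8% of the control mean. This library and the 3 melatonin libraries also stood apart in their shares of unmapped reads and of processed pseudogene counts. They are called a technical set here for these shares alone, and the labels name no batch. Unmapped reads made up 2.24% to 2.34% of their reads and processed pseudogenes took 0.314% to 0.324% of their gene counts, against 1.22% to 1.36% and 0.163% to 0.172% in siCLOCK replicates 1 and 2 and the controls. No control library shared this technical set with the melatonin libraries, so melatonin and the set cannot be told apart except through the library labelled siCLOCK replicate 3. KRT8, KRT18, VIM and AXL, which mark this line, were at 130.3 CPM or more in every library, and HBB, an erythroid marker, had no counts. These 4 genes were themselves lower in melatonin than in control, from VIM at -0.30 to AXL at -0.38 on the log2 scale.

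The start regions of these genes were rich in the E-box, CACGTG, the motif at which CLOCK and MYC bind with their partners. RefSeq windows on GRCh38.p14, from 250 bases before to 50 bases after an annotated start, were at hand for 32 of the 38 genes, and 16 of the 32 held the motif. Of 15843 protein-coding genes with such windows, expressed in these cells or not, 10.9% held it. No background of expressed genes alone was used. Counted by window, these were 40.0% of 40 windows and 8.34% of 22199 windows. The motif reads the same on both strands. Of the 16 matches, 15 lay within 50 bases of the start. The stretches below are shown because they carry this motif in the 4 genes that fell in melatonin and in the next genes by p-value. Each is 30 bases on the gene's own strand with the E-box in capitals.
DDX21 (chr10:68956604-68956633, plus strand): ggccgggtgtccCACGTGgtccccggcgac
LYAR (chr4:4290068-4290097, minus strand): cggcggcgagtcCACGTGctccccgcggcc
FBL (chr19:39846356-39846385, minus strand): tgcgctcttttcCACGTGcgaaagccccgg
GAR1 (chr4:109815781-109815810, plus strand): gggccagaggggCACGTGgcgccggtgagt
PES1 (chr22:30591880-30591909, minus strand): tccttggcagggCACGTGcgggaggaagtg
UTP4 (chr16:69132621-69132650, plus strand): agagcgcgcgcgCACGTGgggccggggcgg
The E-box began at base -31 from the start in DDX21, -64 in LYAR, 7 in FBL, 32 in GAR1, 14 in PES1 and -16 in UTP4, where base 1 is the first transcribed base. The ETS motif CCGGAAG, searched on both strands, was in 12 of the 32 genes, against 16.5% of protein-coding genes. GGGCGG, bound by SP1, was in 24 of 32 against 64.3%, and GCATGCG, the core of the NRF1 motif, in 2 of 32 against 6.07%. A match says only that these letters are present, not that a factor was bound.

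In melatonin against control, 15 of the 38 genes fell, none rose and 23 did not pass (edgeR's quasi-likelihood test on all 9 libraries, adjusted p under 0.05 by Benjamini-Hochberg over 16441 genes). That is 39.5% of them, while 12.1% of all genes tested fell and 11.0% rose. By role, 7 of 8 small nucleolar ribonucleoprotein genes fell, 3 of 4 nucleolar proteins with several roles, 4 of 12 large subunit factors, 1 of 8 small subunit factors and none of 6 RNA polymerase I genes. Differences between roles were not tested, and a count of 0 among 6 genes cannot be told from the 12.1% of all genes. These calls depend on how the technical set is treated: with a term for it, 1 of the 38 genes was lower, or 2.63% against 2.96% of all genes, and the median log2 fold change was -0.02. At an unadjusted p under 0.05, 25 genes were lower and none was higher with edgeR, DESeq2 and limma-voom alike, or 65.8% of them. Of all genes tested 35.2% with edgeR, 30.1% with DESeq2 and 35.2% with limma-voom were under that p in either direction. The median log2 fold change was -0.24 over the 38 genes and 0.01 over all genes tested, and 33 of the 38 values were below 0. All 3 melatonin libraries lay below all 3 controls for 28 of the 38 genes, which was so for 21.4% of all genes. The melatonin libraries lay above the controls for 2, POLR1A and UBTF, against 21.9% of all genes. At an adjusted p under 0.01, 9 genes fell (23.7%, against 6.92% of all genes), and 3 fell by at least 0.5 on the log2 scale (7.89%, against 4.14%). With no filter on low counts 24 fell (63.2%, against 6.68% of the larger number of genes then tested). Together the 38 genes took 0.561% ± 0.00312 of gene counts in melatonin, 0.635% ± 0.0681 in siCLOCK and 0.690% ± 0.0233 in control (SD, n = 3 each). These are shares of each library's RNA, so fewer cells of a kind and less RNA per cell cannot be told apart, nor can a change in total RNA be seen.

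**Figure D1:**
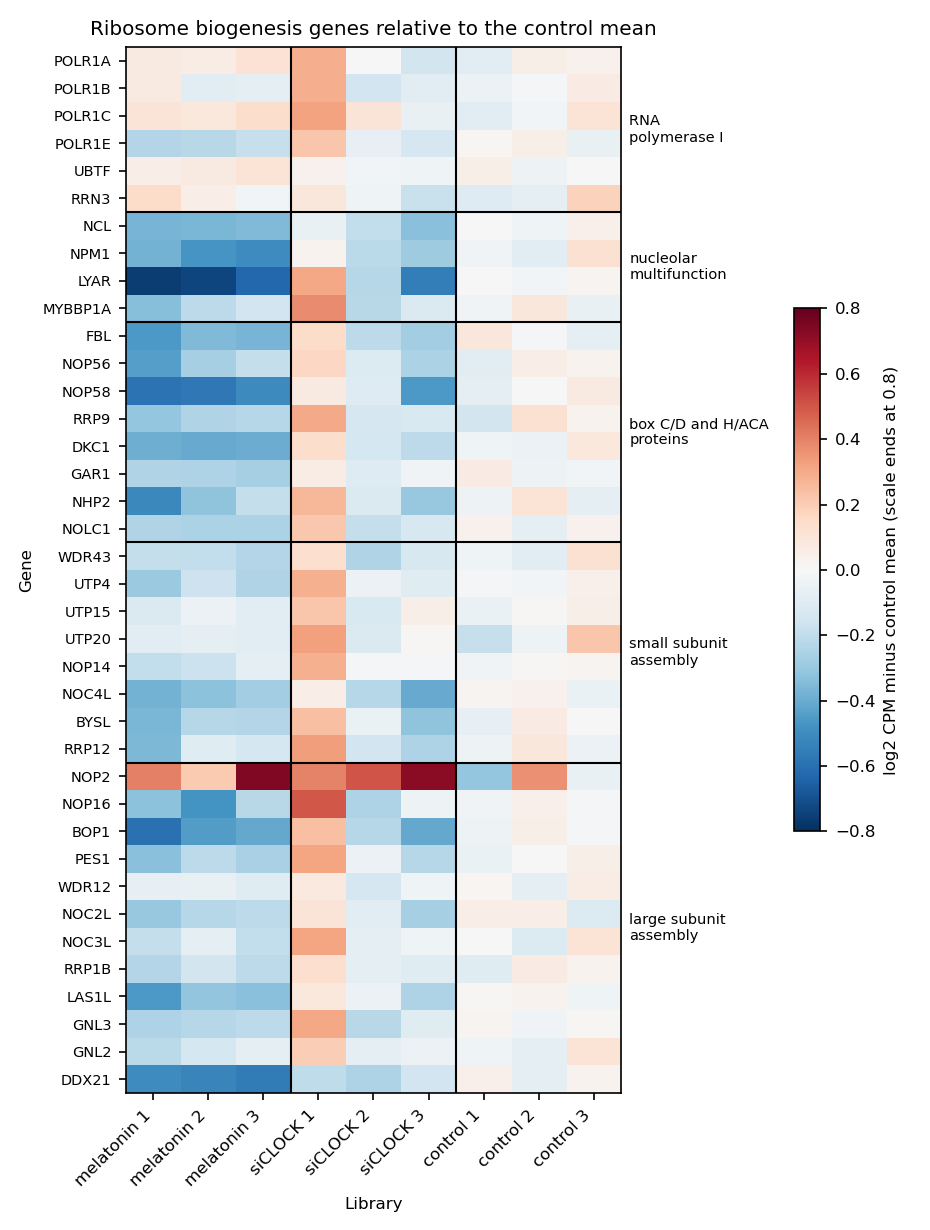
Log2 CPM of each of the 38 genes (rows, by role) in each of the 9 libraries (columns) minus the gene's mean over the 3 controls, on a colour scale from -0.8 to 0.8 with blue below and red above the control mean. The melatonin columns are mostly blue outside the RNA polymerase I rows, siCLOCK replicate 1 is mostly red, and siCLOCK replicates 2 and 3 are mostly pale blue.

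The RNA polymerase I genes are the catalytic subunit POLR1A, the second largest subunit POLR1B, POLR1C, which is shared with RNA polymerase III, the subunit POLR1E, the factor UBTF, which keeps ribosomal DNA open, and RRN3, which makes the polymerase ready to start. None of these 6 passed in melatonin against control, with log2 fold changes from -0.21 to 0.11 and a median of 0.07, and POLR1E alone was under an unadjusted p of 0.05 with edgeR, DESeq2 and limma-voom. UBTF (ENSG00000108312.14, chr17:44205033-44221626 on GRCh38) had 110.6, 111.8 and 114.7 CPM in melatonin, 109.0, 105.0 and 104.1 CPM in siCLOCK and 110.1, 103.3 and 106.0 CPM in control. The melatonin libraries were the highest, but their mean lay above the control mean by less than the controls differed among themselves (log2 fold change 0.08, SE 0.0604, adjusted p = 0.381). POLR1C had 26.2, 25.8 and 26.9 CPM in melatonin, 30.4, 26.2 and 23.3 CPM in siCLOCK and 22.9, 23.98 and 26.3 CPM in control, with overlap between all groups. POLR1E (chr9:37485935-37503697) was the member of this group with the smallest p. It had 46.5, 47.0 and 48.1 CPM in melatonin, 63.9, 52.3 and 49.8 CPM in siCLOCK and 55.3, 56.5 and 52.5 CPM in control. All melatonin libraries were below all others. Its log2 fold change was -0.21 with an SE of 0.0835, which missed the threshold (adjusted p = 0.0713). POLR1A stood at 0.08, RRN3 at 0.05 and POLR1B at -0.03, each with an SE from 0.0856 to 0.0969.

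Of the 4 nucleolar proteins with several roles, 3 fell and 1 did not pass, with a median log2 fold change of -0.41. All 4 had every melatonin library below every control. NPM1 (ENSG00000181163.13, chr5:171387116-171411137), a histone and ribosome chaperone that holds the outer nucleolus together, had 2115, 1987 and 1946 CPM in melatonin, 2807, 2371 and 2259 CPM in siCLOCK and 2702, 2580.0 and 2990 CPM in control. Every melatonin library was below every other library. The log2 fold change against control was -0.45 (SE 0.0777, adjusted p = 3.95e-04), which puts melatonin at 73.1% of control. NCL (chr2:231453531-231483641), the RNA-binding protein nucleolin, had 901, 907 and 915 CPM in melatonin, 1122, 1019 and 928 CPM in siCLOCK and 1167, 1138 and 1200.2 CPM in control. The 3 groups did not overlap in the order melatonin, siCLOCK, control, and NCL fell by 0.36 on the log2 scale in melatonin against control (SE 0.0663, adjusted p = 6.55e-04).

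LYAR (chr4:4267701-4290169), a zinc finger protein of the nucleolus named here after its values were seen, had the largest fall of the 38. It stood at 47.3, 48.0 and 51.7 CPM in melatonin, 99.3, 68.2 and 54.5 CPM in siCLOCK and 80.1, 78.9 and 81.1 CPM in control. Melatonin was at 61.3% of control (log2 fold change -0.71, SE 0.136, adjusted p = 0.00105). The controls lay close together, while the siCLOCK libraries lay on both sides of them. MYBBP1A, which binds MYB and represses RNA polymerase I transcription, stood at -0.23 and did not pass (adjusted p = 0.138). NPM1 has many processed pseudogenes. The 45 annotated under its name held 653 to 706 counts in the melatonin libraries, 471 to 869 in siCLOCK and 467 to 515 in control, or at most 2.02% of the counts of NPM1 in any library.

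Of the 8 genes of small nucleolar ribonucleoproteins, 7 fell and RRP9 did not pass, and all 8 had every melatonin library below every control. The median log2 fold change was -0.32. NOP58 (ENSG00000055044.10, chr2:202265716-202303666), a core box C/D protein, had 75.9, 76.8 and 80.2 CPM in melatonin, 119.9, 106.5 and 83.2 CPM in siCLOCK and 108.8, 114.1 and 120.2 CPM in control. It was at 67.9% of control in melatonin (log2 fold change -0.56, SE 0.0951, adjusted p = 3.60e-04). FBL (chr19:39834458-39846414), fibrillarin, the methyltransferase of these particles, had 245, 265 and 261 CPM in melatonin, 374, 292 and 279 CPM in siCLOCK and 359, 336 and 319 CPM in control. It fell by 0.39 on the log2 scale (SE 0.0870, adjusted p = 0.00303).

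NOP56, the partner of NOP58, fell by 0.30, and NOLC1, a chaperone of both particle classes, by 0.25. Of the H/ACA core, the pseudouridine synthase gene DKC1 fell by 0.40 (adjusted p = 0.00129), NHP2 by 0.34 and GAR1 by 0.25. RRP9, which binds the U3 particle, stood at -0.26 (adjusted p = 0.0820). Of the 38 genes, 7 hold annotated small nucleolar RNA genes within their bounds, 24 in all, among them NOP56 with 5, NOP58 with 4 and GNL3 with 6. Those 24 genes had only 30 to 41 counts per melatonin library, 34 to 53 per siCLOCK library and 34 to 39 per control library, so their own levels could not be compared at this depth.

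**Figure D2:**
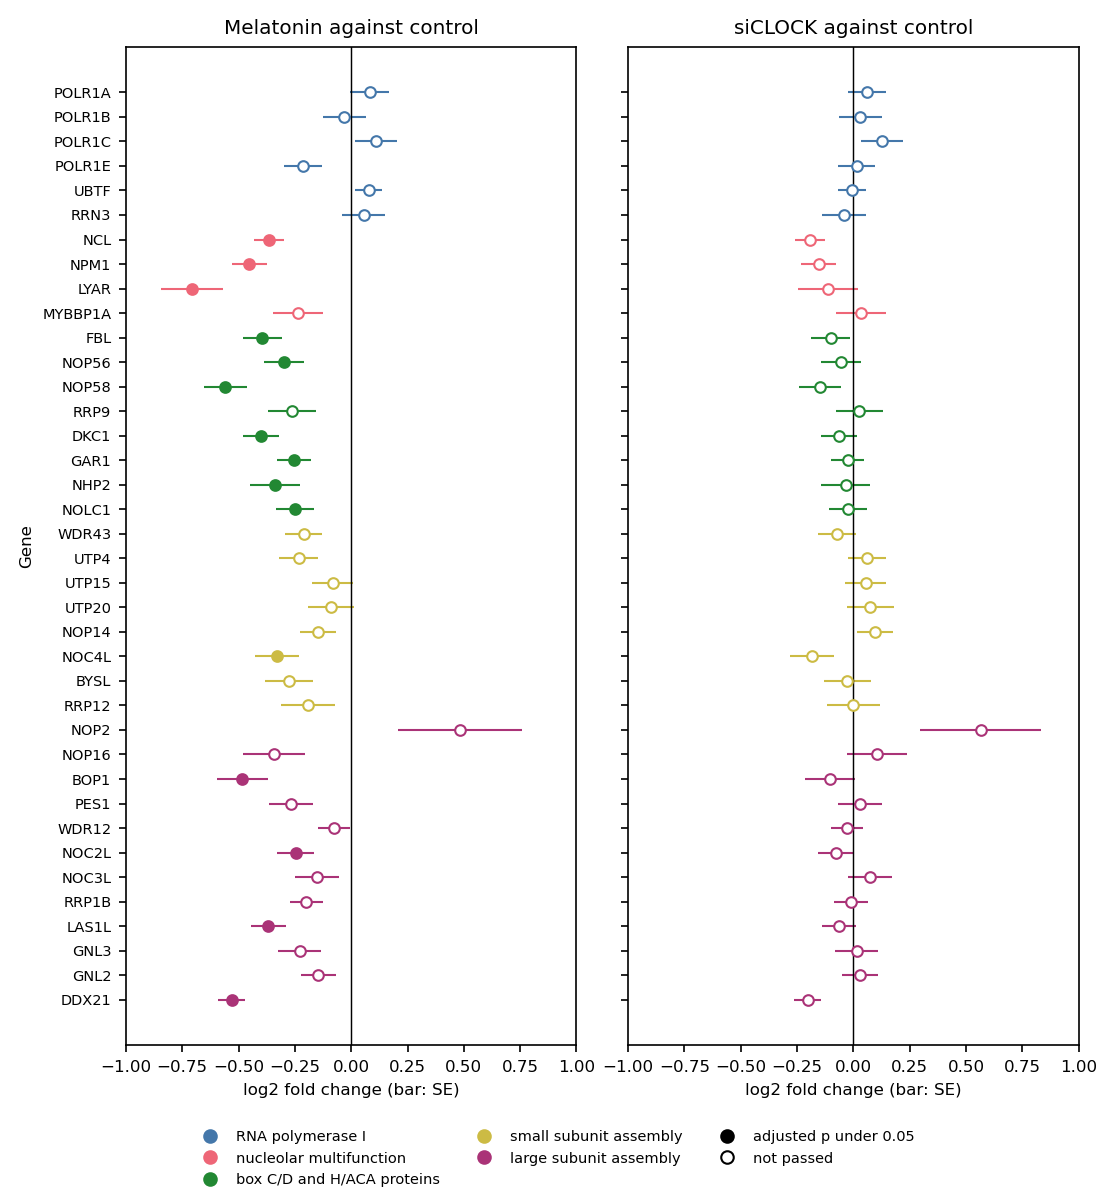
Log2 fold change with its standard error (bars) for the 38 genes by role, melatonin against control on the left and siCLOCK against control on the right. Filled points passed an adjusted p under 0.05. The 15 filled points on the left are all below 0 and none of them is an RNA polymerase I gene, and there is no filled point on the right.

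Of the 8 factors of small subunit assembly, 1 fell and 7 did not pass. That share of 12.5% is near the 12.1% of all genes that fell. The median log2 fold change was -0.20 and all 8 values were below 0. NOC4L (chr12:132144448-132152473), a nucleolar factor that works with NOP14, had 20.8, 21.5 and 22.3 CPM in melatonin, 28.0, 23.1 and 20.5 CPM in siCLOCK and 27.5, 27.7 and 26.03 CPM in control. All melatonin libraries, siCLOCK replicate 2 and the library labelled siCLOCK replicate 3 were below the controls, and the fall in melatonin was by 0.33 on the log2 scale (SE 0.0987, adjusted p = 0.0217). WDR43 (chr2:28894643-28948222), of the UTP-A complex that joins the precursor first, had 82.7, 82.4 and 80.6 CPM in melatonin, 103.6, 79.9 and 86.7 CPM in siCLOCK and 92.2, 89.2 and 102.9 CPM in control. The groups melatonin and control did not overlap, but the difference did not pass (log2 fold change -0.21, SE 0.0837, adjusted p = 0.0766). UTP4 and UTP15, of the same complex, stood at -0.23 and -0.08, BYSL at -0.27, RRP12 at -0.19, NOP14 at -0.15 and UTP20 at -0.09.

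Of the 12 factors of large subunit assembly, 4 fell and 8 did not pass, a share of 33.3%, with a median of -0.24. DDX21 (ENSG00000165732.12, chr10:68956128-68985073), an RNA helicase that binds both ribosomal RNA and small nucleolar RNAs, had the smallest p of the 38. It had 146, 143 and 140.0 CPM in melatonin, 179, 174 and 185 CPM in siCLOCK and 212, 196 and 211 CPM in control. The 3 groups did not overlap, with siCLOCK between melatonin and control. Melatonin was at 69.3% of control (log2 fold change -0.53, SE 0.0603, adjusted p = 5.71e-06). BOP1, of the complex with PES1 and WDR12 that matures the large subunit RNA, fell by 0.48 (adjusted p = 0.00426), while its partners PES1 (-0.27, adjusted p = 0.0551) and WDR12 (-0.08) did not pass. LAS1L, an endonuclease of the internal spacer, fell by 0.37 and NOC2L by 0.25. NOP16 stood at -0.34, GNL3, or nucleostemin, at -0.23, RRP1B at -0.20, NOC3L at -0.15 and GNL2 at -0.15.

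NOP2, an RNA methyltransferase of the large subunit, had only 13 to 29 counts per library. It had 1.20, 1.03 and 1.55 CPM in melatonin, 1.19, 1.29 and 1.52 CPM in siCLOCK and 0.690, 1.16 and 0.841 CPM in control. Its exons share 54.4% of their length with AC006064.6, a gene annotated on the same strand, and reads in shared exons are counted for neither gene. Its log2 fold changes of 0.48 in melatonin (adjusted p = 0.2195) and 0.57 in siCLOCK (adjusted p = 0.601) rest on these few counts. The next largest overlaps ran from 17.1% for NOP14 to 27.4% for NHP2.

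**Figure D3:**
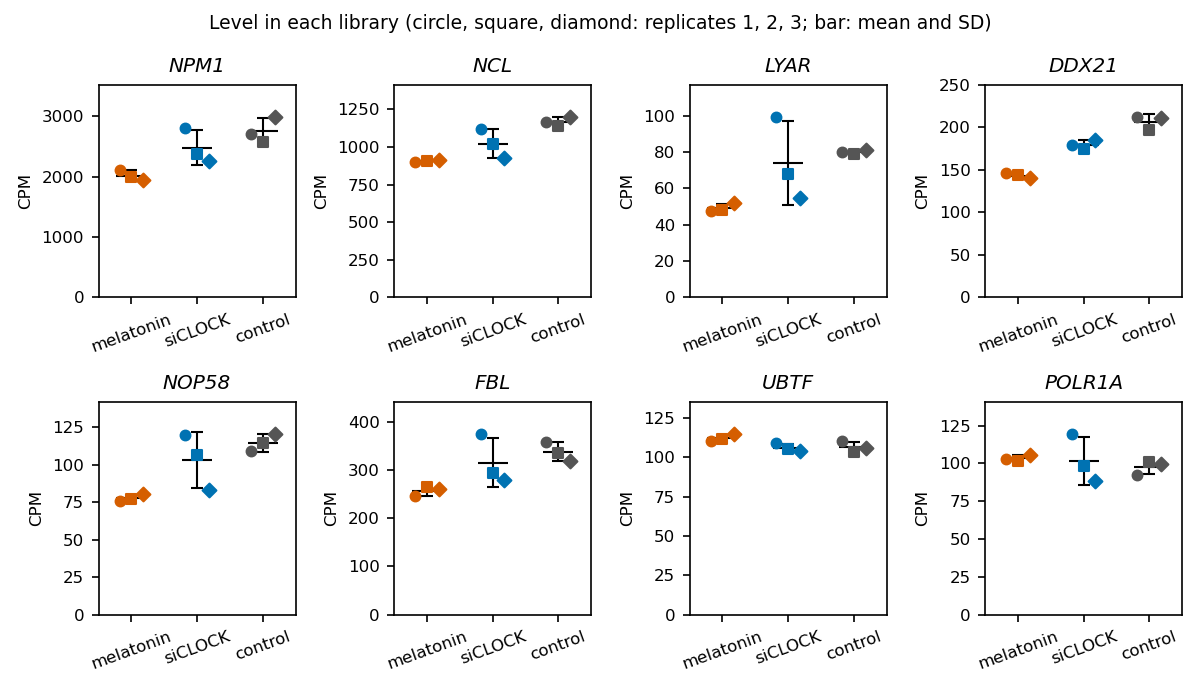
CPM in each library (circle, square and diamond for replicates 1, 2 and 3) with the group mean and SD for 8 genes, on axes that start at 0. NPM1, NCL, LYAR, DDX21, NOP58 and FBL were lower in all melatonin libraries than in all controls, and the melatonin libraries of UBTF and POLR1A lay just above the controls, a difference that did not pass the test.

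The fall in melatonin was larger in the more abundant of these genes. Per kilobase of exon, mean control levels ran from 720.3 CPM for NPM1, 169 CPM for NCL and 155 CPM for FBL to 4.04 CPM for RRP12 and 3.58 CPM for UTP15, with NOP2 below all at 0.192 CPM. Across the 37 genes without NOP2, this level and the log2 fold change in melatonin had a Spearman correlation of -0.75, given as a description over genes that share the same libraries. Across 7653 protein-coding genes at 20 CPM or more in control, the correlation was -0.25, so the same direction was seen, at a smaller size, over genes at large. Of the 13 members at 100 CPM or more, 10 fell, or 76.9%, against 27.1% of 2080 protein-coding genes at that level. Of the 24 members from 20 to 100 CPM, 5 fell, or 20.8%, against 14.6% of 5573 genes. Exon length went along with it: the Spearman correlation with the fold change was 0.56 over the 37 genes and 0.19 over the 7653. The part of level and length in the falls was not tested.

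**Figure D4:**
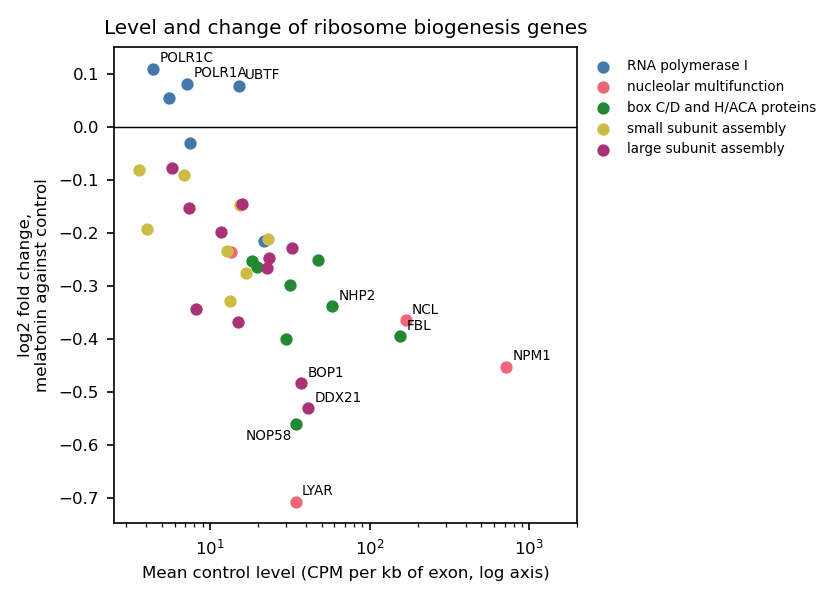
Mean control level in CPM per kilobase of exon (log axis) against the log2 fold change of melatonin against control for 37 genes, coloured by role. The abundant NPM1, NCL and FBL lie between -0.45 and -0.36, and the RNA polymerase I genes lie at 4.39 to 21.8 CPM per kilobase with 4 of 6 above 0.

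The changes of genes with and without the E-box were set side by side as a description. Of the 16 genes with the motif, 4 fell in melatonin, with a median log2 fold change of -0.23. Of the 16 with a window but no motif, 8 fell, with a median of -0.27. Of all genes tested 12.1% fell. The 6 genes without a window are in neither group, among them NOP58, NOLC1 and BOP1, which fell. In siCLOCK against control these medians were 0.03 and -0.04.

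In siCLOCK against control, none of the 38 genes passed with edgeR, at 0.0669% of all genes lower and 0.0547% higher, and none passed with DESeq2 or limma-voom. At an unadjusted p under 0.05 there were 3 with edgeR (NCL and DDX21 lower, NOP2 higher), 2 with DESeq2 and 4 with limma-voom. The 3 of edgeR are 7.89% of the genes, near the 8.24% of all genes under that p, and the shares of all genes were 5.66% with DESeq2 and 7.85% with limma-voom. The median log2 fold change over the 38 genes was -0.02. CLOCK itself, the target of the siRNA, did not pass with edgeR in this comparison (log2 fold change -0.42, adjusted p = 0.340). DDX21 stood at -0.20 (SE 0.0598, adjusted p = 0.287) and NCL at -0.19 (SE 0.0662, adjusted p = 0.385). These were the 2 genes whose siCLOCK libraries all lay below the controls, as 5.06% of all genes did. For 1 gene, NOP2, they all lay above, as for 5.75%. This comparison and that of melatonin use the same control libraries.

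The group mean hid siCLOCK libraries that lay on both sides of the controls. In siCLOCK replicate 1, where CLOCK was lowest at 51.5% of control, 31 of the 38 genes were above every control and 30 were the highest of all 9 libraries, with a median of 0.22 on the log2 scale over the control mean. In replicate 2, 25 genes were below every control (median -0.12), and in the library labelled siCLOCK replicate 3, 26 were (median -0.13). Of all genes tested, 31.1% were above every control in replicate 1, and 26.5% in replicate 2 and 28.5% in the library labelled replicate 3 were below every control. The medians over all genes were between 0.00 and 0.01 in these libraries. The median SD over the 38 genes was 14.9% of the mean in siCLOCK, against 3.77% in melatonin and 4.87% in control. RNA polymerase I genes took part in this spread, at a median of 0.26 in replicate 1, -0.03 in replicate 2 and -0.11 in the library labelled replicate 3. DDX21 and NCL alone were below every control in replicate 1, and 4 of the 6 RNA polymerase I genes were above every control there. Without siCLOCK replicate 1, the median over the 38 genes was -0.14, and LYAR and BOP1 passed as lower (5.26% of the genes, against 0.227% of all genes). Without the library labelled siCLOCK replicate 3, the median was 0.06 and none passed.

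**Figure D5:**
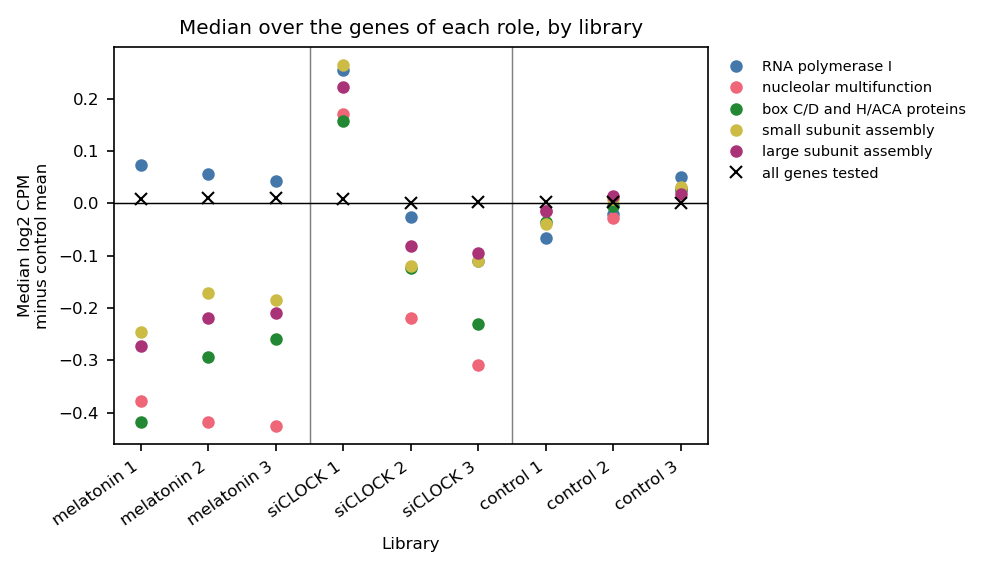
Median over the genes of each role of log2 CPM minus the control mean (vertical axis) in each of the 9 libraries, with all genes tested as crosses. In siCLOCK replicate 1 all roles lie above 0, in siCLOCK replicates 2 and 3 all lie below, and in the melatonin libraries RNA polymerase I stays between 0.04 and 0.07 while the other roles lie between -0.43 and -0.17.

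In melatonin against siCLOCK, 13 genes were lower, none was higher and 25 did not pass, a share of 34.2% with 10.1% of all genes lower and 7.43% higher. The median log2 fold change was -0.23. DDX21 (-0.33, adjusted p = 0.00106), LYAR (-0.59, adjusted p = 0.00579) and NOP58 (-0.41, adjusted p = 0.00606) had the smallest p-values, and none of the 6 RNA polymerase I genes passed. For 16 genes the groups did not overlap with melatonin lower, as for 17.4% of all genes, and for UBTF with melatonin higher, as for 16.8%. Within the technical set that melatonin shares with the library labelled siCLOCK replicate 3, the median was -0.10. The fit called 4 genes lower and 1 higher there, against 9.67% and 7.92% of all genes. Its spread comes from the melatonin libraries alone, so these calls compare melatonin with that single library and not with the siCLOCK condition. Without siCLOCK replicate 1, 5 of the 38 genes were lower (LYAR, NOP58, DKC1, LAS1L and DDX21), against 8.2% of all genes, and without the library labelled siCLOCK replicate 3, 26 were, against 12.9%. With all libraries, 4 were lower at an adjusted p under 0.01 (5.31% of all genes), 1 by at least 0.5 on the log2 scale (3.01%) and 21 with no filter (5.61%). With only the 6 libraries of melatonin and siCLOCK, 8 were lower (8.85% of all genes), and with the set term 1 was, DDX21 (3.85%).

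How much of the fall in melatonin goes with the technical set depended on siCLOCK replicate 1. When a term for the set was added, 1 of the 38 genes was lower in melatonin than in control, DDX21 at -0.60 (adjusted p = 8.76e-04), or 2.63% against 2.96% of all genes, and the median was -0.02. That term is estimated only from the library labelled siCLOCK replicate 3 against siCLOCK replicates 1 and 2, so the rise of these genes in replicate 1 enters it. With siCLOCK replicate 1 left out, a choice made after the data were seen, the term left 5 genes lower (NPM1, LYAR, NOP16, GNL3 and DDX21), or 13.2% against 4.20% of all genes, with a median of -0.18 and 33 values below 0. The term then rested on 1 library against 1, the library labelled siCLOCK replicate 3 against siCLOCK replicate 2. CLOCK stood at 93.8% and 78.7% of the control mean in these, so the set and the CLOCK level cannot be told apart there. When only the 6 melatonin and control libraries were fitted, with no set term, 26 of the 38 genes were lower, or 68.4%. The share of all genes was 17.5%. POLR1E was the 1 of the 6 RNA polymerase I genes called there, a count too small to tell from that share.

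Other genes of the pathway were taken from lists drawn up by role. Of 149 tested, 32 fell in melatonin and 7 rose, or 21.5% and 4.70%, against 12.1% and 11.0% of all genes, with a median log2 fold change of -0.13. Of 12 genes listed as further box C/D and H/ACA proteins and assembly factors, 3 (25.0%) fell. Among them were TCOF1 (-0.61, adjusted p = 5.00e-05), the Treacher Collins protein treacle, which is not itself a protein of these particles, and the assembly ATPase RUVBL2 (-0.48). Of 49 further large subunit factors 15 (30.6%) fell, with EBNA1BP2 (-0.81, adjusted p = 2.81e-05) and PUM3 (-0.65) first by p-value, and the release factor LSG1 rose by 0.25. Of 47 further small subunit factors 6 (12.8%, near the share of all genes) fell, among them LTV1 (-0.57) and KRR1 (-0.35), and UTP3 rose by 0.26. Of 26 nucleases of ribosomal RNA processing 7 (26.9%) fell, among them ERI1 (-0.48) and the exosome subunit EXOSC8 (-0.40), and 3 rose, RPP40 (0.39), POP5 (0.26) and RPP14 (0.31) of the RNase P and MRP enzymes, RPP14 being named after its values were seen.

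Polymerase genes outside the 38 were called in both directions, in counts too small to tell from the 12.1% lower and 11.0% higher of all genes. Of 15 other RNA polymerase I subunits and factors, CD3EAP (-0.54) fell. TAF1C (0.26), of the promoter selectivity factor, and POLR2L (0.24), a subunit shared by the nuclear polymerases, rose. These are 6.67% lower and 13.3% higher. The median was -0.04. Of 11 RNA polymerase III subunits, POLR3B (0.54) rose and POLR3G (-0.48) fell, or 9.09% each way, with a median of 0.09. In siCLOCK against control none of these 160 genes passed with edgeR, DESeq2 or limma-voom. With those tools 7, 5 and 7 of them were under an unadjusted p of 0.05. Of all genes tested 8.24%, 5.66% and 7.85% were under that p, so these counts do not set the 160 genes apart. With the technical set as a term, 3 of the 149 genes were lower and 1 was higher in melatonin, against 2.96% and 1.72% of all genes, and the median was 0.05.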

How the data were processed

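Per the submitters' processing notes, reads were aligned with STAR 2.7.9a to GRCh38 (hg38). Each deposited file lists, per gene, raw counts taken without regard to strand and on either strand. All 58721 gene identifiers matched GENCODE release 29, a release inferred from the identifiers. The strand totals had a ratio of 1.01 to 1.05, so those without strand served here. They cannot separate a gene from an overlapping or antisense one, and 9.77% to 10.6% of reads per library were set aside as ambiguous.

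The test was that of edgeR 4.0.16 in R 4.3.3: filterByExpr (16441 genes kept), TMM scaling, 1 quasi-likelihood fit to all 9 libraries with a term per group, two-sided tests, Benjamini-Hochberg adjustment over all genes and a threshold of 0.05. The biological coefficient of variation was 0.0682. SE is the log2 fold change divided by the square root of F. Library medians used log2 CPM with a prior count of 2, and exon lengths are unions over all annotated transcripts. The procedure was also run on simulated counts with known changes and no technical set. Only the direction of the median change was required to come out right, so that run cannot speak to the technical set.

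The genes, the lists and the technical set, divided at 1.8% unmapped reads, were chosen with earlier results of these data known. Values in every library are given, per role, for the gene with the smallest p in melatonin, the most abundant in control and the one with the largest change in siCLOCK. Other lists name the 2 smallest p-values and up to 2 genes called against their list's direction. Alternatives were DESeq2 1.42.0, limma-voom (limma 3.58.1), RLE and upper quartile scaling, 2 other filters, each strand's counts, protein-coding genes only, the 6 libraries compared, a replicate block, the set term, stricter thresholds and each library left out.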

Additional observations from a re-analysis of the deposited data

How the results depend on the processing

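In melatonin against control 15 genes were lower. The count was 24 with no filter on low counts and 26 with only the 6 libraries compared. It was 24 without the library labelled siCLOCK replicate 3 and 25 without siCLOCK replicate 1, against 14.6% and 14.5% of all genes, both libraries being outside that comparison and left out after the data were seen. It was 9 at an adjusted p under 0.01, 3 when a log2 change of 0.5 or more was asked for as well, 1 with the set term and 5 with that term and siCLOCK replicate 1 left out. Leaving out each library of the comparison gave 10 to 13 (8.2% to 10.7% of all genes). The other settings, among them DESeq2, limma-voom and both other scalings, gave 14 to 18 (10.5% to 16.5% of all genes), and no setting gave a gene that was higher. With the set term 10 genes turned from below to above 0, none of them past the threshold: NHP2 (0.051) and NOC2L (0.027) of the 15, and POLR1B, POLR1E, UTP20, NOP14, BYSL, RRP12, PES1 and NOC3L, which left 23 of 38 below 0.

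In siCLOCK against control the count was 0 in every setting except without siCLOCK replicate 1, where 2 were lower. Without each library it thus ran from 0 to 2. In melatonin against siCLOCK 13 were lower, 21 with no filter, 8 with the 6 libraries compared and 4 at an adjusted p under 0.01. The count was 1 when that fold change was asked for as well and 1 with the set term. With that term and siCLOCK replicate 1 left out the count was also 1, or 2.63% against 5.98% of all genes. Within the second technical set 4 were lower and 1 was higher. Leaving out each library gave 5 to 26: 5 without siCLOCK replicate 1, 17 without replicate 2 (8.3% of all genes) and 26 without the library labelled replicate 3, and 5, 6 and 7 without melatonin replicates 1, 2 and 3 (6.18% to 6.34%). The cause of these differences was not tested.

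The labels number the replicates alike in each group, but libraries with the same number did not deviate together (correlations from -0.09 to 0.06). With a replicate block 15 genes were lower in melatonin against control, 0 in siCLOCK against control and 10 in melatonin against siCLOCK. The shares of all genes lower with that block were 11.4%, 0.0487% and 9.43%. Depth limits NOP2, with 13 to 29 counts per library, and the small nucleolar RNA genes inside the members.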
